A study of Mus musculus with 8 samples.

Results

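The genes described here encode the oxidative phosphorylation machinery of mouse blood stem and progenitor cells. They were taken by symbol: every gene whose symbol starts with Nduf, Uqcr or Atp5, the genes Sdha to Sdhd, the Cox4 to Cox8 families with 1 symbol left out, and the mitochondrially encoded mt-Nd, mt-Co, mt-Cytb and mt-Atp genes. The rule found 115 of the 27318 gene identifiers in the count tables. Of these, 78 were nuclear genes for subunits of the complexes (36 of complex I, 4 of complex II, 8 of complex III, 14 of complex IV and 16 of complex V), 11 were assembly or accessory genes, 13 were pseudogenes or non-coding genes, and 13 lay in the mitochondrial genome (7 for complex I, 1 for complex III, 3 for complex IV and 2 for complex V).

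The respiratory chain passes electrons from NADH through complex I, or from succinate through complex II, to ubiquinone, complex III, cytochrome c, complex IV and oxygen, and complex V uses the proton gradient to make ATP. All complexes but complex II are built from subunits of both genomes, so nuclear transcripts and transcripts made inside the organelle must both be supplied. Blood stem cells are known for low mitochondrial respiration and a reliance on glycolysis while quiescent, and oxidative phosphorylation is needed when they divide and differentiate.

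The cells came from bone marrow of Dach1-GFP mice aged 8 to 16 weeks. In these mice the Dach1 gene carries a biotin tag before its stop codon and an IRES-GFP cassette after it, on an allele made from 1 clone of C57BL/6 embryonic stem cells and freed of its neomycin cassette by Flpe recombinase, so Dach1 expression can be read as GFP. All cells carried the reporter, on 1 or both alleles as the labels leave unsaid. The marrow was enriched for CD117 (cKit) and single cells of the stem and progenitor gate, labelled LSK, were index sorted into plates, so that the surface signals of each cell are known. CEL-seq2, which counts the 3' ends of polyadenylated RNA, was run on 8 plates: 4 named LC (replicates 1 to 4) and 4 named LCE (replicates 5 to 8).

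Within each plate, cells were ranked by 1 sorter signal at a time and the upper and lower tercile, 111 to 113 cells each, were compared. Cells high in Sca1, a stem and progenitor surface protein, were set against cells low in it. Cells high in CD135 (Flt3, the receptor that marks lymphoid and multipotent progenitors) were set against cells low in it, and cells low in Dach1-GFP against cells high in it. These comparisons used 8 plates. Cells high in CD48 (a surface protein absent from most stem cells), forward scatter (a measure of cell size) or side scatter (a measure of granularity) were set against cells low in them on the 4 LCE plates. The animals behind each plate are not given in the labels, and the p-values therefore speak only of variation from plate to plate, part of which may be technical.

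After filtering, 2712 of 2987 cells remained, with median counts per cell of 11586 to 13398 for LC plates and 5627 to 7525 for LCE plates. The mitochondrial genome made up a median of 5.608% to 6.289% of a cell's counts in LC plates and 4.078% to 4.438% in LCE plates. The arms separated the transcripts of the ranked proteins: Ly6a (Sca1) differed by 2.01 on the log2 scale between Sca1-high and Sca1-low cells, Flt3 by 2.10 between CD135-high and CD135-low cells, Cd48 by 1.44 between CD48-high and CD48-low cells, and Dach1 by −1.96 between GFP-low and GFP-high cells. The gate was not pure: 160 cells held at least 3 of 9 B lineage markers. Forward scatter rank rose with counts per cell (Spearman's rho 0.62 to 0.71 within the 4 plates, a description), and so did CD48 (0.47 to 0.61) and side scatter (0.43 to 0.54), while Sca1 ran against it over 8 plates (−0.30 to −0.16). Arms by these signals therefore differ in depth too.

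Together the members held 3.638% of all counts, with 1.072% from the nuclear subunits, which lie on 19 chromosomes, and 2.449% from the mitochondrial genes. Some members have near-identical copies elsewhere in the genome that could take or share their reads: 20 nuclear subunits and 7 mitochondrial genes had at least 1 annotated copy with 95% identity or more near the 3' end. The end of mt-Co1, which encodes the catalytic core of complex IV, shows the difficulty. A stretch of 60 bases near the end of its transcript (chrM:6785-6844, plus strand) is shown beside those of Gm29216 on chromosome 1 (chr1:24615734-24615793, minus strand) and Gm13340 on chromosome 2 (chr2:22588131-22588190, minus strand), unprocessed pseudogenes, as the GENCODE mouse transcripts on GRCm38 give them. Capitals mark the positions where mt-Co1 and Gm13340 differ.
mt-Co1: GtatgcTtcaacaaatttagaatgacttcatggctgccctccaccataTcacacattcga
Gm29216: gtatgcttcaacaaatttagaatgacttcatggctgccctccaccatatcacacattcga
Gm13340: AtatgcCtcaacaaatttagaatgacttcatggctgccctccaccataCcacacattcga
Gm29216 differed from mt-Co1 at 0 of these 60 bases and Gm13340 at 3. The tables gave 147654 counts to Gm29216, 62719 to Gm13340 and 95052 to mt-Co1 itself. The counts of Gm29216 moved with the mitochondrial genes, with a difference of −0.25 ± 0.03 (log2, SE) between cells high and low in forward scatter. For this reason 6 mitochondrial genes without such copies (mt-Nd1, mt-Nd4, mt-Nd5, mt-Nd6, mt-Cytb and mt-Atp8) were also summed alone, and each comparison was repeated with 26 members merged with 48 copies.

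Forward scatter gave the widest contrast between the 2 genomes. In cells high in forward scatter 29 of 76 tested nuclear subunits rose and 0 fell, while 1 of the 13 mitochondrial genes rose and 4 fell. Over all members 37 of 111 tested were higher and 5 lower, where 18.4% of all tested genes were called, 11.6% higher and 6.86% lower. DESeq2 called 11 members, 8 higher and 3 lower. The shares that DESeq2 called over all genes are not given, here or in the later comparisons. The median log2 difference was 0.29 for nuclear subunits and −0.01 for mitochondrial genes, beside −0.01 over all tested genes. Summed over the nuclear subunits, cells high in forward scatter averaged 10500 ± 217 CPM (counts scaled to a common total per arm), against 8960 ± 245 CPM in cells low in it (SD, n = 4 plates). The 6 mitochondrial genes without copies averaged 10700 CPM in cells high in forward scatter and 12200 CPM in cells low in it, a mean log2 ratio of −0.19. For the nuclear subunits, more expressing cells and more RNA per cell cannot be told apart, because sums of cells were compared. Of the mitochondrial genes that fell, mt-Nd4, mt-Cytb and mt-Co1 had counts in all 2712 kept cells and mt-Nd5 in 2706. CPM are shares of an arm's counts. Median counts per cell were 7888 to 10233 in the high cells and 4613 to 6058 in the low cells. A lower CPM here is a lower share and does not give the RNA per cell.

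**Figure D1:**
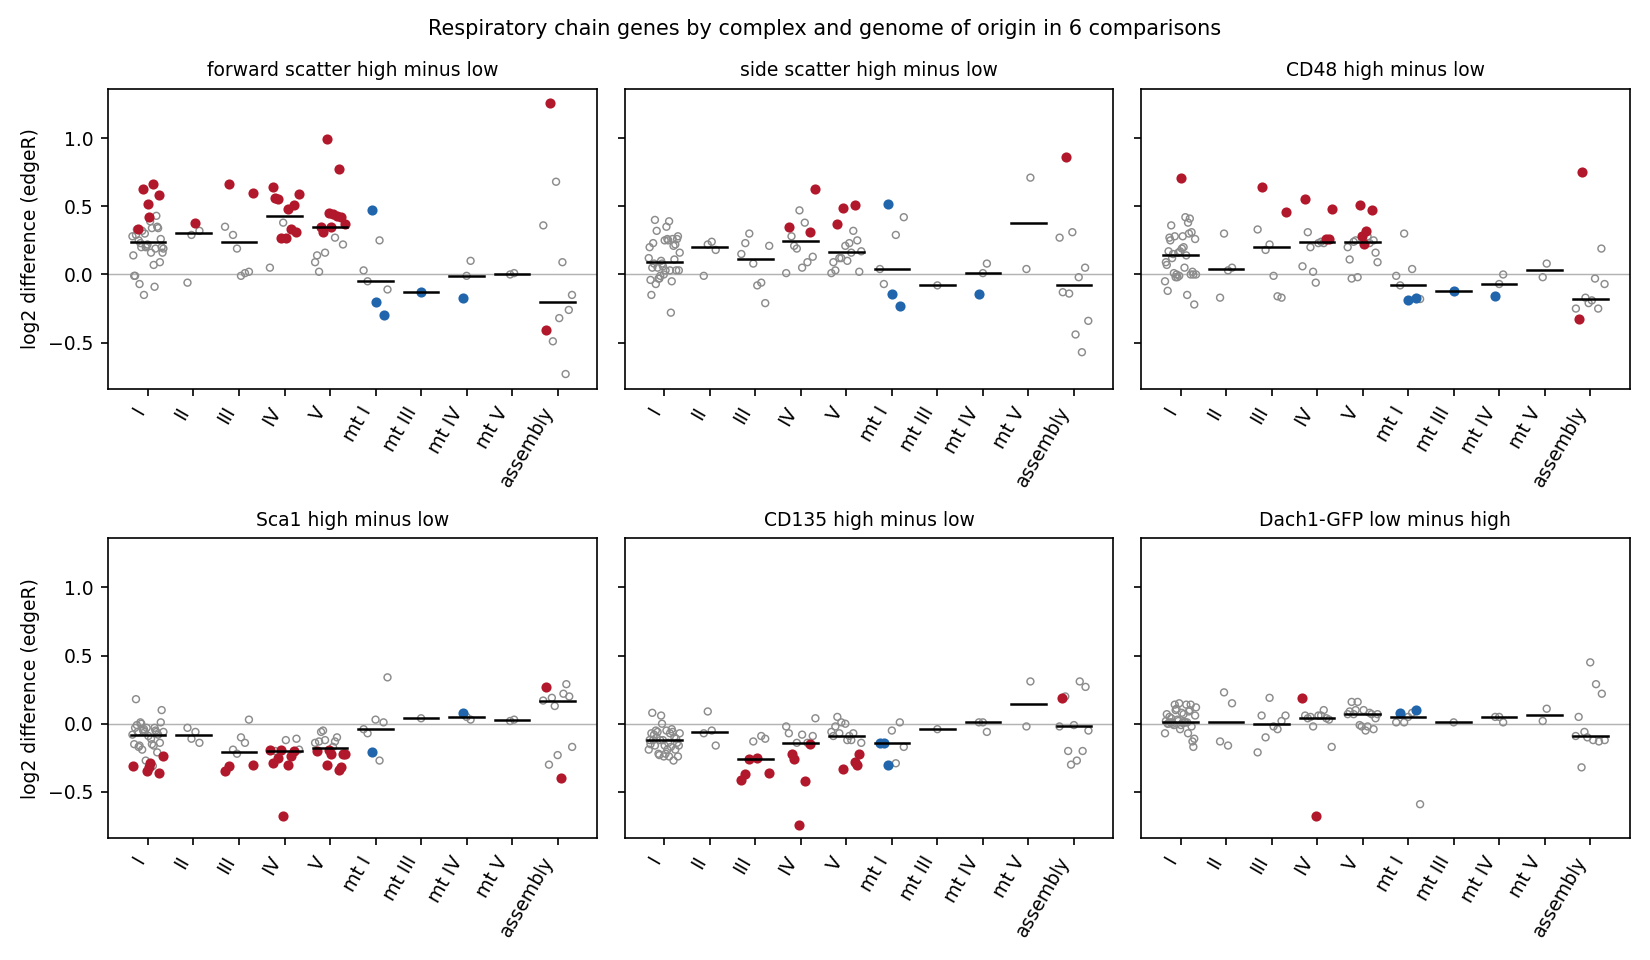
Log2 fold change of each tested member (points) in 6 comparisons, 1 panel each, with members grouped by complex and genome on the other axis; filled points passed an adjusted p of 0.05 (red nuclear, blue mitochondrial) and bars mark group medians. By forward scatter complexes IV and V hold 10 filled points each of the 29 for nuclear subunits, with medians of 0.43 and 0.35.

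The ATP synthase genes of the rotor ring were among the largest changes. Atp5g1, Atp5g2 and Atp5g3 encode the same mature subunit c, which forms the ring that turns as protons pass, from separate precursors. Atp5g1 had 143, 162, 177 and 181 CPM in cells high in forward scatter of replicates 5 to 8, against 79.5, 81.0, 98.9 and 86.5 CPM in cells low in it. Every plate of high cells lay above every plate of low cells, and the log2 difference was 0.99 ± 0.12 (adjusted p = 4.5e-11). Atp5g3 had 354, 331, 413 and 324 CPM in high cells and 286, 271, 313 and 287 CPM in low cells. Its groups did not overlap either, with a smaller difference of 0.35 ± 0.07 (adjusted p = 0.000103). Atp5g2 rose by 0.45 ± 0.09 with groups that overlapped. As a share of the counts of the 3 genes, Atp5g1 made up 21.8 ± 1.47% in high cells and 15.5 ± 0.742% in low cells (SD, n = 4), higher on 4 of 4 plates. Such shares depend on how well each transcript's end is captured and describe a shift between arms, not the amount of protein.

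Of the 16 complex V genes tested, 10 rose and 0 fell. Atp5k encodes subunit e, which joins ATP synthase dimers. Its levels were 146, 132, 112 and 154 CPM in cells high in forward scatter and 79.5, 107, 69.6 and 77.3 CPM in cells low in it, without overlap, a difference of 0.77 ± 0.13 (adjusted p = 1.1e-06). The stalk and membrane subunit genes Atp5d, Atp5e, Atp5h, Atp5j2, Atp5l and Atp5o also rose, by 0.31 to 0.44. The alpha, beta and gamma subunits of the catalytic part did not pass the test, with differences of 0.09 for Atp5a1, 0.14 for Atp5b and 0.02 for Atp5c1. The mitochondrially encoded mt-Atp6, the proton channel subunit, and mt-Atp8 gave −0.00 and 0.01, and merging mt-Atp6 with its copy gave −0.15.

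In complex IV, cytochrome c oxidase, 10 of 12 tested nuclear subunits rose and 0 fell. Cox5a, a matrix-side subunit, had 221, 218, 203 and 252 CPM in cells high in forward scatter and 134, 164, 150 and 149 CPM in cells low in it. The groups did not overlap and the difference was 0.64 ± 0.10 (adjusted p = 1.1e-07). Cox7c, a small transmembrane subunit, had 349, 371, 342 and 378 CPM in high cells and 260, 257, 249 and 287 CPM in low cells. It rose by 0.51 ± 0.07 (adjusted p = 3.9e-08), again without overlap. Ndufa4, first assigned to complex I and now known as a complex IV subunit, rose by 0.59 ± 0.10, and Cox6a1, the widely expressed form of its subunit, by 0.55 ± 0.09. Cox5b, Cox6b1, Cox6c, Cox7a2, Cox7b and Cox8a rose by 0.27 to 0.56. Cox4i1, the ubiquitous isoform of subunit 4, differed by 0.05 and Cox6b2, the testis form of subunit 6b, by 0.38 (adjusted p = 0.262), and neither passed the test. Cox4i2 and Cox7a1, isoforms known from lung and muscle, were too low to be tested in any comparison.

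A pair of accessory genes stood on opposite sides. Ndufa4l2, a paralog of Ndufa4 known as a target of hypoxia-inducible factor, had 23.2, 39.0, 22.8 and 38.3 CPM in cells high in forward scatter, against 2.89, 21.1, 9.16 and 22.1 CPM in cells low in it. The groups did not overlap and the difference was 1.26 ± 0.29 (adjusted p = 0.000361), on 124 counts in high cells and 31 in low cells, so counting error is large. Cox7a2l, a paralog of Cox7a2 whose protein joins complexes III and IV in supercomplexes, had 193, 178, 174 and 198 CPM in high cells and 262, 273, 246 and 247 CPM in low cells. It fell by 0.41 ± 0.09 on the log2 scale (adjusted p = 0.000207), without overlap. Cox7a2 had 102, 139, 115 and 125 CPM in high cells and 85.3, 93.3, 78.8 and 99.4 CPM in low cells, a difference of 0.48 ± 0.13 (adjusted p = 0.00277). Cox7a2l made up 60.8 ± 3.81% of the counts of the pair in high cells and 74.2 ± 2.03% in low cells (SD, n = 4).

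**Figure D2:**
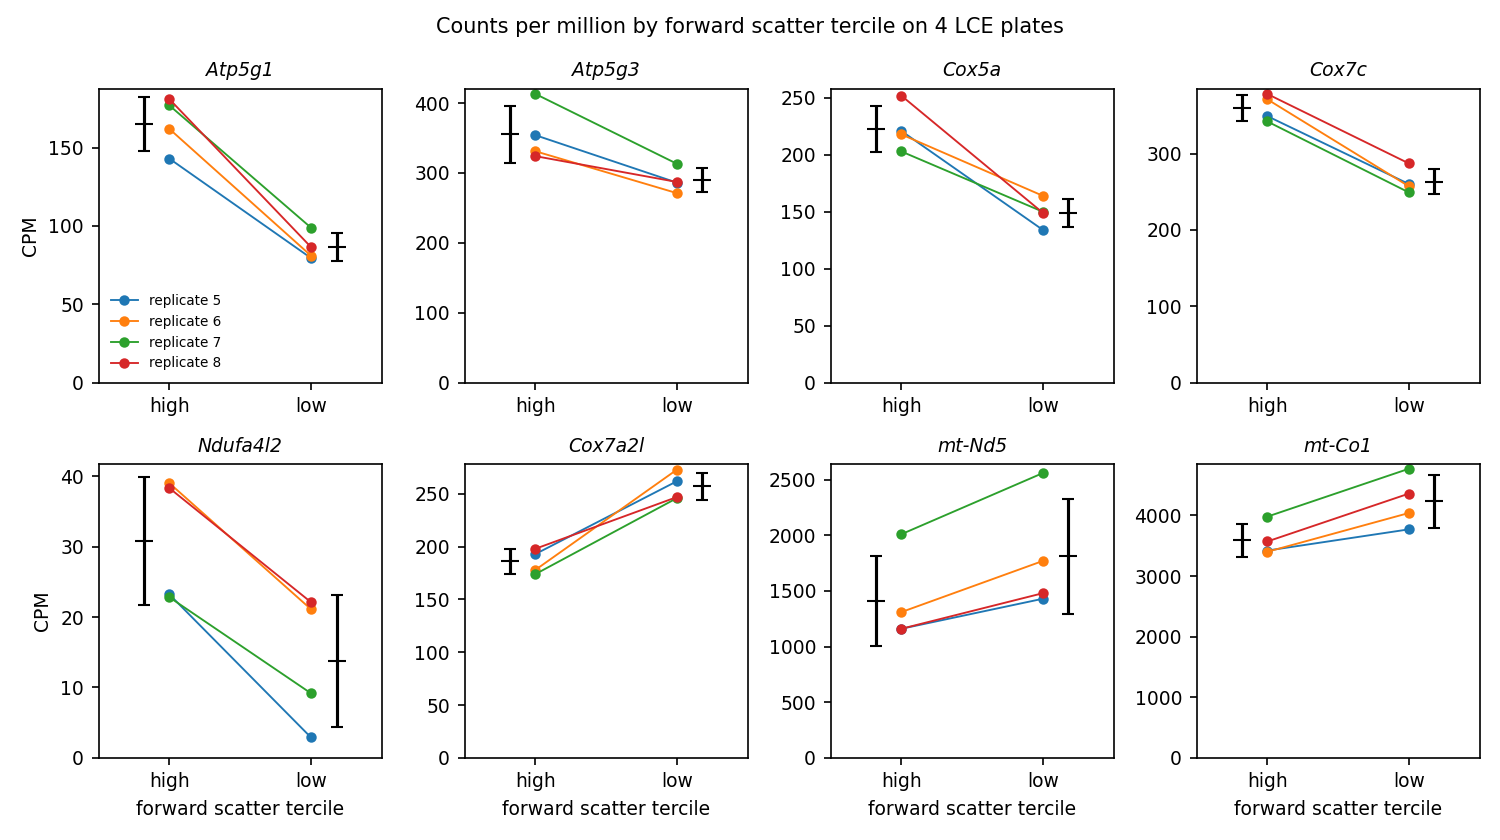
CPM of 8 members in cells high (left) and low (right) in forward scatter, with a line for each of the 4 LCE plates and the mean and SD as black bars. Atp5g1, Atp5g3, Cox5a, Cox7c and Ndufa4l2 are higher and Cox7a2l, mt-Nd5 and mt-Co1 lower in the high cells on every plate.

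Complexes I, II and III held the other 9 nuclear subunits that rose. Of 36 complex I subunits 6 rose and 0 fell (Ndufab1, Ndufc1, Ndufb5, Ndufs6, Ndufb6 and Ndufa3), with a median of 0.24. Ndufab1, which is also the mitochondrial acyl carrier protein, had 104, 88.4, 98.8 and 90.8 CPM in cells high in forward scatter and 69.4, 74.0, 64.1 and 49.7 CPM in cells low in it. Its groups did not overlap, and it rose by 0.63 ± 0.15 (adjusted p = 0.000576). Core subunits of the arm that oxidises NADH and hands electrons on did not pass the test, with differences of −0.09 for Ndufs1, 0.43 for Ndufs3, 0.09 for Ndufs7, 0.26 for Ndufs8, 0.20 for Ndufv1 and 0.16 for Ndufv2. Of the 4 complex II genes, Sdhc, a membrane anchor, rose by 0.38 ± 0.14 (adjusted p = 0.0446), while Sdha (−0.06), Sdhb (0.29) and Sdhd (0.32) did not pass. In complex III, Uqcrq and Uqcr11, small subunits of its membrane part, rose by 0.60 ± 0.13 and 0.66 ± 0.16, and the core genes Uqcrc1 (0.19), Uqcrc2 (−0.01) and Uqcrfs1 (0.01), the last of which encodes the Rieske iron-sulfur protein, did not pass.

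The mitochondrial genes that fell were mt-Nd5, mt-Nd4, mt-Cytb and mt-Co1. mt-Nd5, the farthest proton-pumping subunit of complex I, had 1160, 1310, 2010 and 1160 CPM in cells high in forward scatter and 1430, 1770, 2560 and 1480 CPM in cells low in it. It was lower in the high cells of each plate, although levels differed so much between plates that the groups overlap, and fell by 0.30 ± 0.04 (adjusted p = 8e-10). mt-Co1 had 3420, 3400, 3980 and 3570 CPM in high cells and 3770, 4040, 4770 and 4360 CPM in low cells, a difference of −0.17 ± 0.03 (adjusted p = 5.9e-06). Merged with its copies, mt-Co1 gave −0.21. mt-Nd4 differed by −0.20 ± 0.03 and mt-Cytb, the only mitochondrial gene of complex III, by −0.13 ± 0.03. mt-Nd3 rose by 0.47 ± 0.13 (adjusted p = 0.00584), but its merged value was 0.16, so that call depends on how reads of the copy are assigned. mt-Nd1 (0.03), mt-Nd2 (−0.05), mt-Nd4l (0.25), mt-Nd6 (−0.11), mt-Co2 (−0.01) and mt-Co3 (0.10) did not pass the test. The end of mt-Co2 has an identical copy, Gm28661, with 168694 counts beside 113094 for mt-Co2. This copy differed by −0.13 ± 0.03 (edgeR adjusted p = 0.000193), so the value of mt-Co2 depends on how its reads are assigned. The copies of mt-Nd2 (Gm13339, 0.08), mt-Nd4l (Gm10222, 0.01) and mt-Co3 (Gm28437, −0.03) did not pass.

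Among 12 tested pseudogenes or non-coding members 6 rose, with a median of 0.44. They include Cox6c2 (0.68) and Atp5k-ps2 (0.84), and 5 of the 6 have near-identical genes elsewhere (8 for Atp5l-ps1 and 9 for Atp5l2-ps), so their counts may hold reads of other genes.

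Markers of dividing cells moved with forward scatter. All 10 of the list rose, with a median of 1.49 and summed levels of 849 to 1130 CPM in cells high in forward scatter, against 284 to 547 CPM in cells low in it, and none was at 0. When the cells with the largest share of these markers, the top tercile of each of the 4 plates, were left out, the median of the nuclear subunits was 0.16 and 8 of them rose, where 4.6% of all tested genes did. Atp5g1 then differed by 0.99 (adjusted p = 4e-06), Cox7c by 0.34, Cox5a by 0.37, Cox7a2l by −0.34 and mt-Nd5 by −0.20, all past the threshold. A stricter removal, of every cell with at least 2 dividing markers, kept 566 of 1352 LCE cells. Nearly all calls of members were then lost, as given under the processing below, and that removal also loses depth. All 4 tested stem cell markers and 5 of 9 B lineage markers were lower in cells high in forward scatter. Of the red cell markers 2 of 4 rose (Hba-a2, 1.31, and Hba-a1, 1.10), with summed levels of 47.1 to 638 CPM in high cells and 68.1 to 231 CPM in low cells, and the platelet marker Pf4 (0.90) and the plasma cell marker Jchain (1.11) rose. Without the cells that held markers of other types the median of the nuclear subunits was 0.28. Over all 8 plates 160 of the 164 cells of that kind were found by B lineage markers, so in this and the later comparisons the part of the red cell, platelet and plasma cell markers was not tested. When each cell was thinned to 3000 counts, 9 nuclear subunits rose, where 7.53% of all tested genes did, and their median was 0.19. The part of dividing cells and of depth in the other differences was not tested.

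Across 5 rank bins, the contrast between the genomes was graded. From the lowest to the highest forward scatter, the nuclear subunits summed to 8940, 9030, 9270, 9760 and 10800 CPM (means of 4 plates). The 6 mitochondrial genes without copies summed to 12600, 11800, 11800, 11300 and 10400 CPM over the same bins. The ratio of the mitochondrial to the nuclear sum was 1.42, 1.30, 1.29, 1.16 and 0.965, and it was lower in the top bin than in the bottom bin on each of the 4 plates. Median counts per cell rose over the same bins, with means of 4830 in the lowest and 9750 in the highest. By CD48 the ratio was 1.33, 1.29, 1.19, 1.15 and 1.04, while by Sca1 it ran the other way, at 0.993, 1.07, 1.09, 1.12 and 1.19. By CD135 it stayed between 1.06 and 1.12.

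**Figure D3:**
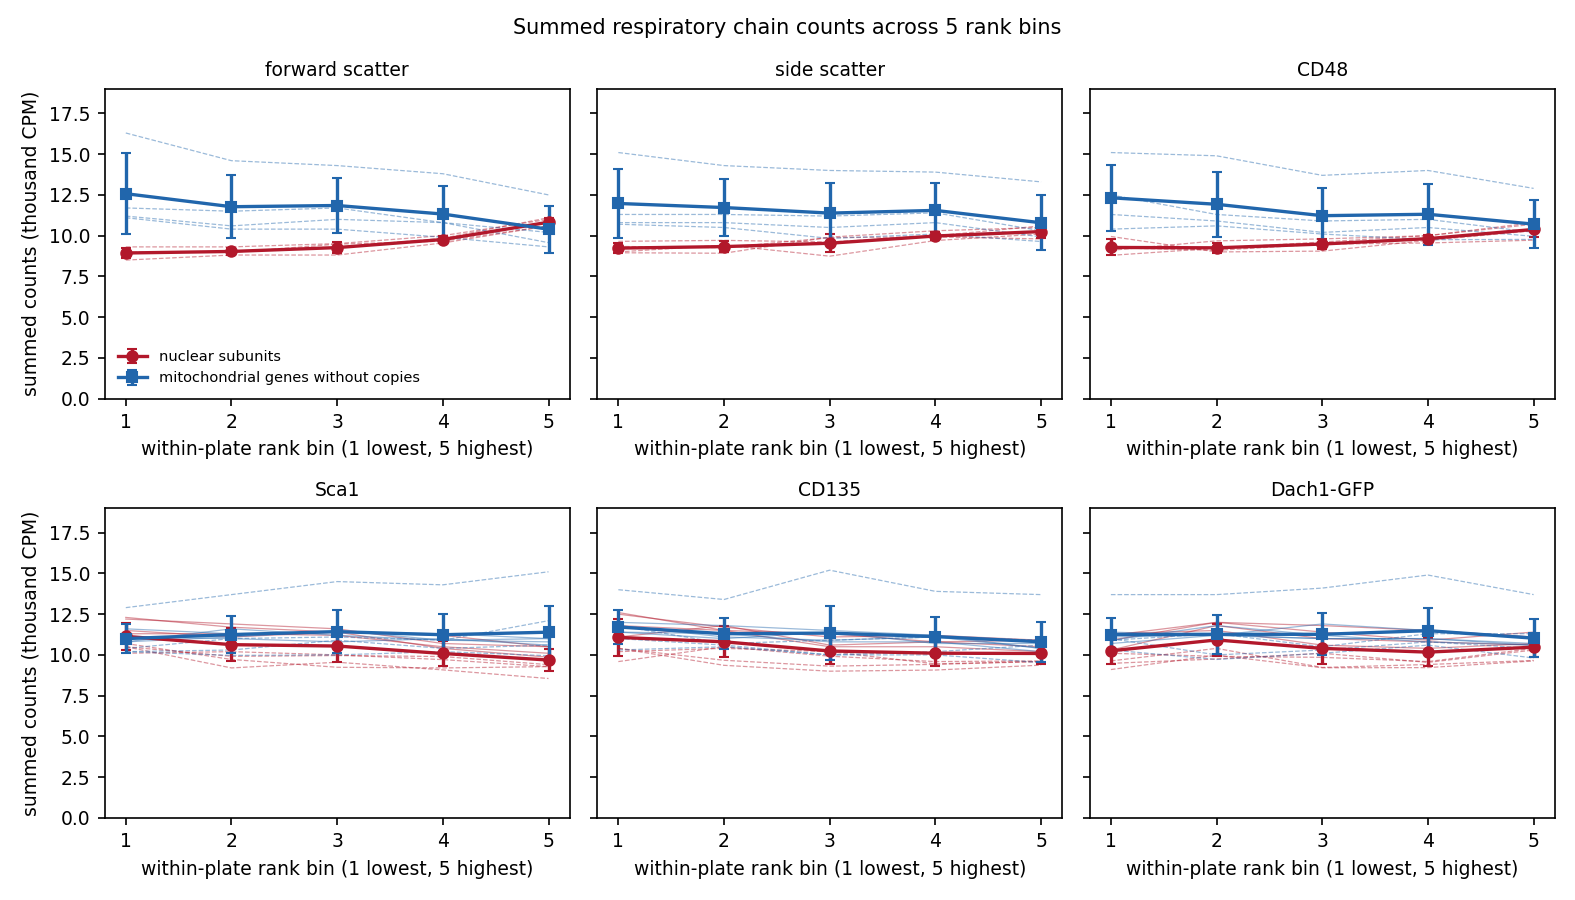
Summed level in CPM (axis in units of 1000) of the nuclear subunits (red) and of the 6 mitochondrial genes without copies (blue) in 5 within-plate bins of each sorter signal, low to high; points and bars are means and SD over plates and thin lines single plates (solid LC, dashed LCE). From the lowest to the highest forward scatter the mean nuclear sum rises and the mean mitochondrial sum falls, and from the lowest to the highest Sca1 the mean nuclear sum falls.

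Sequences of the promoters are set beside these values because the members that moved by forward scatter lie on many chromosomes. Promoters (300 bases, 250 before to 50 after the start, RefSeq on GRCm38.p6) were found for 65 of the 78 nuclear subunits, 70 promoters in all. Motif cores of NRF1, of the ETS family (which includes GABP) and of YY1, textbook regulators of respiratory genes, were searched on both strands as GCGCNTGCG, CCGGAAG and AAGATGGCG, with a promoter counted once however many matches overlap. The NRF1 core stood in 34.3% of the nuclear subunit promoters, against 6.31% of 32851 promoters of all genes. The ETS core stood in 22.9% of the nuclear subunit promoters and 8.86% of all promoters, and the YY1 core in 7 of the 70 and 1.4% of all. Among 75 promoters of mitochondrial ribosomal protein genes, 18 held the NRF1 core, 34.7% the ETS core and 8 the YY1 core. These cores were thus not particular to the respiratory chain genes, and the ETS core was more frequent in the ribosomal set. By complex the NRF1 core was in 29.4% of complex I, 2 of 3 complex II, 3 of 5 complex III, 1 of 11 complex IV and 8 of 17 complex V promoters. The 150 bases before the start are printed for members with opposite or large differences, on the minus strand in each case: Atp5g1 (chr11:96075632-96075781), Atp5g2 (chr15:102671048-102671197), Atp5g3 (chr2:73911327-73911476), Atp5k (chr5:108434400-108434549), Cox6a1 (chr5:115348959-115349108), Cox7a2l (chr17:83514334-83514483) and Cox6b2 (chr7:4753095-4753244). Capitals mark matches to the NRF1 or ETS core on either strand.
Atp5g1: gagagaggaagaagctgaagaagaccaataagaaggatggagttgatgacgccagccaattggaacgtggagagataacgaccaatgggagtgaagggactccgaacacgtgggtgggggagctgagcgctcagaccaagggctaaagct
Atp5g2: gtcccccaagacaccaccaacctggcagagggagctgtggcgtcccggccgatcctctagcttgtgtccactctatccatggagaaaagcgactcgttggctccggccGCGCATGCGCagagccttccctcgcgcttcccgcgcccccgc
Atp5g3: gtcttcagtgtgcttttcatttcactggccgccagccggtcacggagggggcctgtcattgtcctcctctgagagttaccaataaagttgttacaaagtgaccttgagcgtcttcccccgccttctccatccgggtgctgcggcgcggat
Atp5k: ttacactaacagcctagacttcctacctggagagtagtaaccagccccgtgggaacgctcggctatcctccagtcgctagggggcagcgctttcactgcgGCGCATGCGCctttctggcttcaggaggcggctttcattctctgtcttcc
Cox6a1: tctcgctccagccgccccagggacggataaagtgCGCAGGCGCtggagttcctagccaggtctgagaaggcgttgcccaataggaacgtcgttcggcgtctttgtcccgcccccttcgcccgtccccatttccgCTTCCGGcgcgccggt
Cox7a2l: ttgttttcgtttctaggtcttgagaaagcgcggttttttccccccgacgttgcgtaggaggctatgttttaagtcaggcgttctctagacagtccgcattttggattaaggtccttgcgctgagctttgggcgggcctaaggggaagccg
Cox6b2: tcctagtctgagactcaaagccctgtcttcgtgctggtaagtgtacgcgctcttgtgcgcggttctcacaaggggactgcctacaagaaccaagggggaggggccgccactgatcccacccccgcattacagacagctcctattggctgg
Atp5g2 and Atp5k hold an NRF1 match that reads the same on both strands, and Cox6a1 holds an NRF1 and an ETS match. Atp5g1, the member of its family with the largest difference by forward scatter, has none of these letters in the printed window, and neither have Atp5g3, Cox7a2l or Cox6b2. In Atp5g3 the NRF1 core lies elsewhere in the 300-base promoter.

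By CD48 the nuclear and mitochondrial genes also parted. In CD48-high cells 12 of 76 nuclear subunits rose and 0 fell, with a median of 0.19, while 0 mitochondrial genes rose and 4 of 13 fell. Over all members 15 of 110 were higher and 5 lower, where 11.5% of all tested genes were called, 7.08% higher and 4.45% lower. Calls fell in complex I (1 of 36), complex III (2 of 8), complex IV (4 of 12) and complex V (5 of 16), and in none of the 4 complex II genes. CD48-high and CD48-low cells share plates and many cells with the scatter groups, so these are not separate evidence. The count of 20 called members was 9 without replicate 8, 10 without replicate 6 and 2 with DESeq2.

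Ndufb5, an accessory subunit of the membrane arm of complex I, had 122, 104, 96.0 and 106 CPM in CD48-high cells of replicates 5 to 8, against 76.5, 73.0, 65.3 and 53.3 CPM in CD48-low cells. The groups did not overlap, and Ndufb5 rose by 0.71 ± 0.14 (adjusted p = 0.000138). Cox5a had 213, 215, 193 and 224 CPM in CD48-high cells and 149, 151, 156 and 137 CPM in CD48-low cells. It rose by 0.55 ± 0.10 (adjusted p = 3.7e-05), also without overlap. Atp5g1 rose by 0.51 ± 0.11, with 150, 172, 151 and 159 CPM in CD48-high cells and 104, 101, 131 and 121 CPM in CD48-low cells. Uqcr11 (0.64), Uqcrq (0.46), Ndufa4 (0.48), Ndufa4l2 (0.75) and Atp5k (0.47) rose with groups that overlapped. Cox7a2l had 185, 194, 180 and 183 CPM in CD48-high cells and 243, 234, 230 and 251 CPM in CD48-low cells, without overlap, and fell by 0.33 ± 0.09 on the log2 scale (adjusted p = 0.00693). The mitochondrial genes that fell were mt-Nd4 (−0.19), mt-Nd5 (−0.17), mt-Co1 (−0.16) and mt-Cytb (−0.12). Copies of 2 genes that were not called also fell: Gm10925 of mt-Atp6 (−0.18, edgeR adjusted p = 1.3e-06) and Gm28661 of mt-Co2 (−0.14, adjusted p = 0.000209). The copies of mt-Nd2, mt-Nd3, mt-Nd4l and mt-Co3 did not pass. The count of mitochondrial genes that fell by CD48 thus depends on how reads are assigned. Of the 10 dividing markers 9 rose, with summed levels of 676 to 1030 CPM in CD48-high cells and 373 to 617 CPM in CD48-low cells. All 4 tested stem cell markers fell and 6 of 8 B lineage markers rose. All 4 red cell markers fell (median −1.66), with summed levels of 82.7 to 146 CPM in CD48-high cells and 58.6 to 1020 CPM in CD48-low cells, Pf4 fell by 1.31 on the log2 scale and Jchain rose by 1.39. Without the cells that held markers of other types the median of the nuclear subunits was 0.17, and with each cell thinned to 3000 counts it was 0.15. Without the tercile of cells rich in dividing markers, 6 nuclear subunits rose by CD48, where 4.7% of all tested genes did.

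Since CD48 and forward scatter rank together (rho 0.33 to 0.54), cells were split at both plate medians and both splits were fitted at once. Forward scatter then called 20 nuclear subunits higher and 0 lower and 3 mitochondrial genes lower, where 11.3% of all tested genes were called, 7.49% higher and 3.79% lower. CD48 at given forward scatter called 3 nuclear subunits higher (Ndufb5, 0.48 ± 0.12; Uqcr11, 0.51 ± 0.14; Cox5a, 0.38 ± 0.08) and mt-Nd4 lower (−0.11), where 4.25% of all tested genes were called, 2.62% higher. Atp5g1 differed by 0.63 ± 0.10 with forward scatter (adjusted p = 5.6e-07). Cox7a2l differed by −0.32 with forward scatter (adjusted p = 0.00135) and by −0.09 with CD48 (adjusted p = 0.623). The 34 calls over both terms were 16 without replicate 5.

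**Figure D4:**
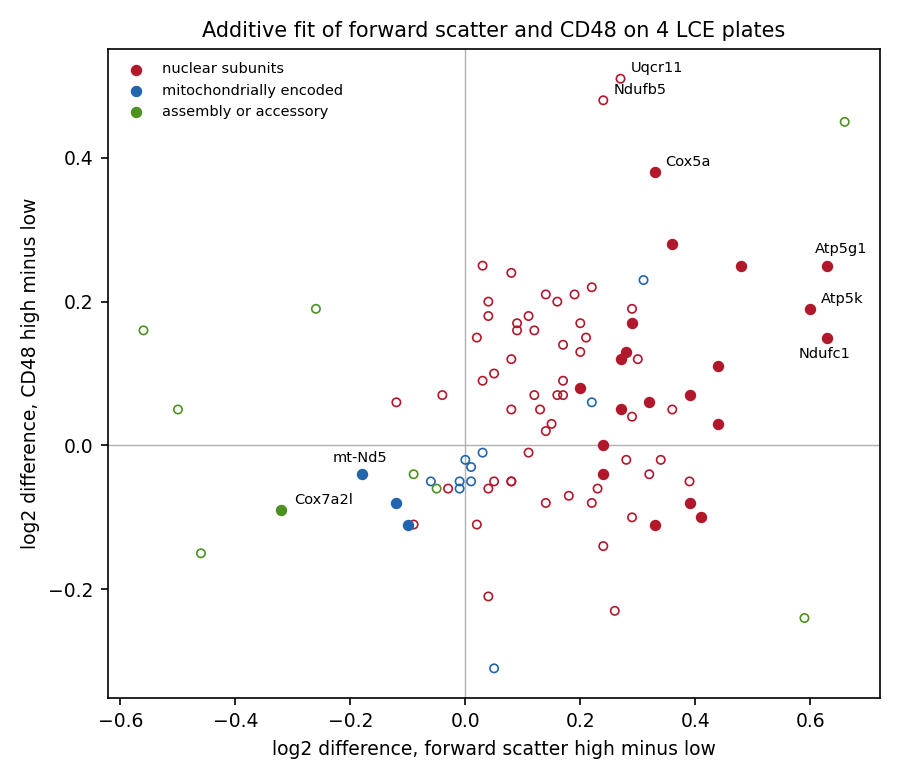
Log2 differences of the members in the fit with both splits, forward scatter on the horizontal and CD48 on the vertical axis (red nuclear subunits, blue mitochondrial genes, green assembly or accessory genes); filled points passed the test for forward scatter. Most nuclear members lie to the right of 0, with Atp5g1 at 0.63, and mt-Nd5 and Cox7a2l lie to the left.

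Side scatter gave fewer calls. In cells high in side scatter 6 of 76 nuclear subunits rose and 0 fell, and 1 mitochondrial gene rose and 3 fell. Over all members 9 of 110 were higher and 3 lower, where 7.46% of all tested genes were called, 5.09% higher and 2.38% lower. The count of 12 called members was 5 without replicate 6 and 1 with DESeq2. Ndufa4 had 157, 273, 212 and 251 CPM in cells high in side scatter and 143, 125, 141 and 167 CPM in cells low in it. It was higher in the high cells of every plate, by 0.63 ± 0.11 (adjusted p = 2.2e-05), although the lowest high plate lay below the highest low plate. Atp5g1 rose by 0.49 ± 0.12, Cox7c by 0.31 and Cox5a by 0.35, each without overlap. Atp5k (0.51), Atp5d (0.37) and Ndufa4l2 (0.86) also rose, mt-Nd3 rose (0.52, but 0.17 with adjusted p = 0.143 when merged with its copy), and mt-Nd5 (−0.23), mt-Nd4 (−0.14) and mt-Co1 (−0.14) fell. The copies Gm10925 of mt-Atp6 (−0.16, edgeR adjusted p = 0.000117) and Gm28661 of mt-Co2 (−0.10, adjusted p = 0.0426) fell too, although these genes were not called. The copies of mt-Nd2, mt-Nd4l and mt-Co3 did not pass. Here too 9 of 10 dividing markers rose, while all 9 B lineage markers fell, 1 of 4 red cell markers rose (Hba-a1, 1.04) and the plasma cell marker Xbp1 fell (−0.49). Of 4 tested stem cell markers 1 fell (Hlf, −0.26). The median of the nuclear subunits was 0.17 without the cells that held markers of other types and 0.12 with each cell thinned to 3000 counts. Without the tercile of cells rich in dividing markers 2 nuclear subunits rose, where 1.09% of all tested genes did.

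Sca1 went the other way for the nuclear genes. In Sca1-high cells 25 of 76 nuclear subunits fell and 0 rose, with a median of −0.15 and 71 of the 76 below 0, while 1 mitochondrial gene rose and 1 fell. Over all members 2 of 112 were higher and 32 lower, where 11.9% of all tested genes were called, 5.63% higher and 6.25% lower. DESeq2 called 8 members, all lower. By complex, 6 of 36 fell in complex I, 0 of 4 in complex II, 3 of 8 in complex III, 8 of 12 in complex IV and 8 of 16 in complex V. The nuclear subunits summed to a mean of 9790 CPM in Sca1-high cells and 10900 CPM in Sca1-low cells, a mean log2 ratio of −0.16 ± 0.05 (SD, n = 8). For the mitochondrial genes without copies the means were 11300 and 11100 CPM.

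Cox6b2, the testis isoform of subunit 6b of complex IV, showed the largest difference. Its level ran from 16.9 to 31.5 CPM over the Sca1-high arms of 8 plates (median 20.6) and from 26.4 to 39.1 CPM over the Sca1-low arms (median 35.5). It was lower in Sca1-high cells on 8 of 8 plates, by −0.68 ± 0.16 (adjusted p = 0.00149), with overlapping groups. Cox5a ranged from 130 to 238 CPM (median 186) in Sca1-high cells and from 185 to 268 CPM (median 235) in Sca1-low cells. It fell on 8 of 8 plates, with a difference of −0.29 ± 0.06 (adjusted p = 0.000418). Atp5l, subunit g of ATP synthase, ranged from 134 to 207 CPM (median 179) in Sca1-high cells and from 181 to 271 CPM (median 214) in Sca1-low cells, lower on 8 of 8 plates by −0.32 ± 0.06 (adjusted p = 0.000107).

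The arms overlapped over the 8 plates for every member called by Sca1. The other calls were smaller than that of Cox6b2. In complex I, Ndufs6 (−0.36), Ndufb4 (−0.35), Ndufb6 (−0.32), Ndufa10 (−0.31), Ndufb7 (−0.29) and Ndufv2 (−0.24), the last an iron-sulfur subunit, were lower. In complex III, Uqcr10 (−0.35), Uqcr11 (−0.31) and Uqcrq (−0.30) were lower. In complex IV, Cox7a2 (−0.30), Cox6a1 (−0.25), Cox7b (−0.24), Cox7c (−0.20), Cox4i1 (−0.19) and Cox6b1 (−0.19) were lower. In complex V, Atp5g1 (−0.30), Atp5g2 (−0.19), Atp5g3 (−0.22), Atp5k (−0.34), Atp5b (−0.20), Atp5mpl (−0.22) and Atp5o (−0.22) were lower, so that all 3 genes of the c ring fell here. The Sdh genes, from −0.14 to −0.03, did not pass. Ndufaf4, an assembly factor of complex I, was lower by −0.40 (adjusted p = 0.0136).

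Cox7a2l again stood apart from its paralog. It ranged from 158 to 274 CPM (median 203) in Sca1-high cells and from 120 to 230 CPM (median 175) in Sca1-low cells. It was higher on 7 of 8 plates, all but replicate 6, with a difference of 0.27 ± 0.07 (adjusted p = 0.00242). Its share of the counts of Cox7a2 and Cox7a2l was 67.0 ± 6.68% in Sca1-high cells and 58.1 ± 8.45% in Sca1-low cells (SD, n = 8), higher on 8 of 8 plates. mt-Co1 was the other member that rose, by 0.08 ± 0.02 (adjusted p = 0.00566), with 3110 to 4740 CPM in Sca1-high cells and 3000 to 4080 CPM in Sca1-low cells and a higher value on 8 of 8 plates. mt-Nd3 fell by 0.21 on the log2 scale, and merged with its copy differed by −0.06. Copies of genes that were not called also moved. Gm10925 of mt-Atp6 (0.09, edgeR adjusted p = 0.00013) and Gm28661 of mt-Co2 (0.09, adjusted p = 0.00022) rose, and Gm13339 of mt-Nd2 (−0.10, adjusted p = 0.0176) fell. The counts of mitochondrial genes called by Sca1 thus depend on how reads are assigned.

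The decline of the nuclear genes with Sca1 was also present as a median within each set of plates, at −0.16 for LC plates and −0.15 for LCE plates. Of the nuclear subunits 18 were called lower in the LC set, where 3.61% of all tested genes were, and 1 in the LCE set, where 1.73% were. All 4 tested stem cell markers rose and all 6 tested B lineage markers fell in Sca1-high cells, and 2 of 10 dividing markers fell, with a median of −0.33. Hba-a1 (−1.13), Hba-a2 (−1.16) and Pf4 (−1.49) also fell, and the plasma cell markers Jchain (2.60) and Sdc1 rose. Without the 164 cells that held markers of other types the median of the nuclear subunits was −0.14. Thinned to 3000 counts per cell, 1 nuclear subunit was called lower, where 1.64% of all tested genes were, and the median was −0.10. Fitted together with forward scatter on the LCE plates, Sca1 called 0 nuclear subunits (median −0.09), and 1 member, mt-Co1, where 1.96% of all tested genes were called. Forward scatter in the same fit called 25 nuclear subunits higher, where 16.9% of all tested genes were called, 10.1% higher.

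In CD135-high cells 14 of 76 nuclear subunits fell and 0 rose (median −0.12), and 3 of 13 mitochondrial genes fell. Over all members 1 of 112 was higher and 20 lower, where 11.1% of all tested genes were called, 6.03% higher and 5.11% lower. The count of 21 called members was 13 without replicate 2 and 8 with DESeq2. By complex, 0 of 36 fell in complex I, 0 of 4 in complex II, 5 of 8 in complex III, 5 of 12 in complex IV and 4 of 16 in complex V. CD135 and Dach1-GFP ranks ran against each other (rho −0.57 to −0.40), and 8 of 9 B lineage markers fell with CD135. All 4 red cell markers fell too (median −1.44), with summed levels of 9.95 to 181 CPM in CD135-high cells and 6.99 to 819 CPM in CD135-low cells, as did Pf4 (−2.22), Jchain (−2.19) and Xbp1 (−0.54), while Sdc1 rose (1.34). Of 4 tested stem cell markers 1 fell (Mllt3, −0.79), and of 10 dividing markers 1 rose (Top2a, 0.23). With each cell thinned to 3000 counts the median of the nuclear subunits was −0.07. Without the cells that held markers of other types the median of the nuclear subunits was −0.11.

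Uqcr10, a small subunit of complex III, ranged from 69.2 to 127 CPM (median 92.6) in CD135-high cells and from 87.2 to 155 CPM (median 120) in CD135-low cells. It was lower on 8 of 8 plates, with a difference of −0.41 ± 0.08 (adjusted p = 0.000272). Uqcr11 (−0.37), Uqcrq (−0.36), Uqcrb (−0.26) and the core subunit Uqcrc2 (−0.25) fell with it. Cox7a2 ranged from 86.9 to 113 CPM (median 99.2) in CD135-high cells and from 92.6 to 169 CPM (median 131) in CD135-low cells. It was lower on 8 of 8 plates, by −0.42 ± 0.08 (adjusted p = 0.00016), while Cox7a2l rose by 0.19 ± 0.06 (adjusted p = 0.0451) on 8 of 8 plates. Cox6b2 ranged from 17.3 to 27.7 CPM (median 20.8) in CD135-high cells and from 26.2 to 49.0 CPM (median 34.9) in CD135-low cells. It was lower on 8 of 8 plates, by −0.74 ± 0.15 (adjusted p = 0.000453). Cox6a1 (−0.26), Cox5b (−0.22), Cox7c (−0.15), Atp5g1 (−0.33), Atp5l (−0.30), Atp5k (−0.28) and Atp5mpl (−0.22) also fell. Atp5g2 (−0.00) and Atp5g3 (−0.12) did not pass.

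The mitochondrial genes that fell with CD135 were mt-Nd1, mt-Nd2 and mt-Nd3, all of complex I. mt-Nd1, which has no near-identical copy, ranged from 2430 to 2910 CPM (median 2810) in CD135-high cells and from 2590 to 3440 CPM (median 3080) in CD135-low cells. It was lower on 8 of 8 plates, by −0.14 ± 0.02 (adjusted p = 5.2e-06). mt-Nd2 differed by −0.14 (adjusted p = 0.000522) and mt-Nd3 by −0.30.

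**Figure D5:**
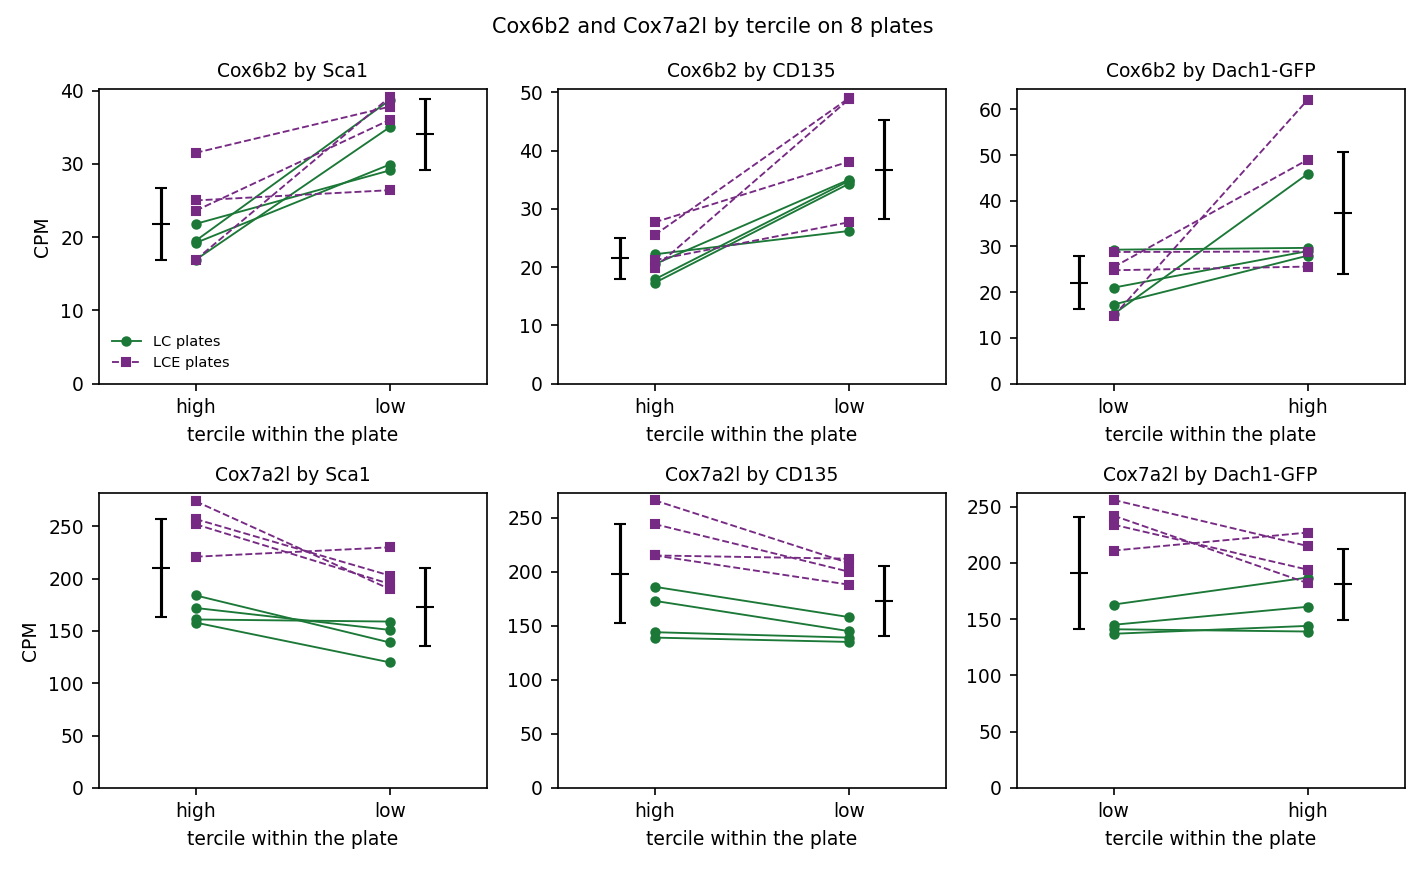
CPM of Cox6b2 and Cox7a2l in the upper and lower arms by Sca1, CD135 and Dach1-GFP on 8 plates, with a line per plate (green LC, purple LCE) and the mean and SD as black bars. Cox6b2 is lower in Sca1-high, CD135-high and GFP-low cells on 8 of 8 plates each, and Cox7a2l is higher in Sca1-high cells on 7 and in CD135-high cells on 8 of 8 plates.

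Dach1-GFP changed few members. In GFP-low cells 1 of 76 nuclear subunits rose and 1 fell, and 2 mitochondrial genes rose. Over all members 3 of 112 were higher and 1 lower, where 7.76% of all tested genes were called, 3.82% higher and 3.94% lower. The count of 4 called members was 1 without replicate 3, 2 without replicate 8, 7 with members merged with their copies and 0 with DESeq2. Cox6b2 ranged from 14.8 to 29.3 CPM (median 22.9) in GFP-low cells and from 25.6 to 62.1 CPM (median 29.3) in GFP-high cells. It was lower on 8 of 8 plates, by −0.68 ± 0.17 (adjusted p = 0.00579). Cox4i1 ranged from 268 to 323 CPM (median 286) in GFP-low cells and from 208 to 289 CPM (median 258) in GFP-high cells, higher on 6 of 8 plates by 0.19 ± 0.05 (adjusted p = 0.0178). mt-Nd5 rose by 0.10 ± 0.03 on 7 of 8 plates (adjusted p = 0.00971) and mt-Nd2 by 0.08 (adjusted p = 0.0481). Gm28661, the copy of mt-Co2, rose by 0.06 (edgeR adjusted p = 0.0283), and the other copies of mitochondrial genes did not pass. All 8 tested B lineage markers rose in GFP-low cells, with summed levels of 31.4 to 864 CPM in GFP-low and 22.2 to 164 CPM in GFP-high arms. Of the red cell markers 3 of 3 tested rose and the plasma cell markers Jchain (2.52) and Sdc1 (1.84) rose, while Pf4 fell (−1.97). All 4 tested stem cell markers fell in GFP-low cells (median −0.78), and 2 of 10 dividing markers fell (Ube2c, −0.50, and Top2a, −0.20). Without the cells that held markers of other types the median of the nuclear subunits was 0.03, and it was 0.04 with them.

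CD135 and Dach1-GFP were also fitted together. The 38 calls of that fit, over both terms, were 23 without replicate 1 and 24 without replicate 4. For CD135, 19 nuclear subunits fell and 0 rose, where 8.7% of all tested genes were called, 4.53% lower. For GFP-low cells at given CD135, 10 nuclear subunits rose and 0 fell (median 0.13), and 2 mitochondrial genes rose, where 6.47% were called, 3.28% higher. The nuclear genes that rose were Ndufb8 (0.26), Ndufc2 (0.19), Uqcr11 (0.33), Cox4i1 (0.19), Cox6a1 (0.23), Cox7b (0.22), Atp5b (0.14), Atp5c1 (0.16), Atp5g3 (0.16) and Atp5k (0.26), and the mitochondrial genes were mt-Nd2 (0.16) and mt-Nd5 (0.11). Cox6b2 differed by −0.55 ± 0.16 with CD135 (adjusted p = 0.02) and by −0.14 with GFP (adjusted p = 0.703) in this fit.

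Other genes of the mitochondrion are given from lists by count. Of the mitochondrial ribosomal proteins, which make the mitochondrially encoded subunits, 7 of 80 rose and 1 fell by forward scatter (median 0.25), where 11.6% of all tested genes rose, and 5 of 81 fell and 0 rose by Sca1 (median −0.14), where 6.25% of all tested genes fell. By CD135, 6 of 80 fell and 0 rose, where 5.11% of all fell, and by CD48, 2 of 80 rose and 1 fell, where 7.08% of all rose. By forward scatter and CD48 the ribosome's shares lie below those over all genes. Of the 18 genes of the tricarboxylic acid cycle, which supplies NADH and succinate, 3 rose by forward scatter (Suclg2, Mdh2 and Idh2) and 3 fell by Sca1 (Dlst, Mdh2 and Idh3g), to be read against the same shares. Mdh2, malate dehydrogenase, differed by 0.37 ± 0.12 with forward scatter, −0.35 ± 0.07 with Sca1 and −0.37 ± 0.07 with CD135. Of electron carriers and assembly factors, 4 of 33 rose and 1 fell by forward scatter, 6 of 37 fell by Sca1 and 5 of 40 by CD135, where 11.6% of all tested genes rose by forward scatter, 6.25% fell by Sca1 and 5.11% fell by CD135. Cycs, cytochrome c, differed by 0.41 ± 0.10 with CD48, −0.35 ± 0.06 with Sca1 and −0.31 ± 0.07 with CD135. Chchd10, an intermembrane space protein, averaged 67.9 CPM in GFP-low cells and 24.2 CPM in GFP-high cells, a difference of 1.30 ± 0.16 (adjusted p = 1.4e-08), and was the only gene of that list called by GFP. The GFP-low arms held 126 cells with at least 3 B lineage markers and the GFP-high arms 13. No value of Chchd10 without these cells is given, so their part in its difference is not known. Of genes that transcribe and translate mitochondrial DNA, 1 of 21 rose by forward scatter (Tsfm, an elongation factor, 1.09 ± 0.27), where 11.6% of all tested genes rose. By side scatter 1 of 18 rose (Tsfm, 0.92 ± 0.27), where 5.09% of all did. By Sca1 0 of 21 were called, by CD135 0 of 22 and by CD48 0 of 19, where 11.9%, 11.1% and 11.5% of all were. A list this short cannot set such counts apart from the shares over all genes. Of 12 regulators, Myc, a known driver of mitochondrial genes, differed by −0.31 ± 0.06 with Sca1 and 0.39 ± 0.09 with CD48, and Foxo3, a factor of stem cell quiescence, by −0.51 ± 0.18 with forward scatter and −0.55 ± 0.18 with side scatter. Sirt3, a mitochondrial deacetylase, differed by 0.25 ± 0.08 with Sca1 and 0.36 ± 0.08 with CD135, and Gabpb1, a subunit of GABP, by 0.52 ± 0.14 with CD135. These are all the regulators called, and 0 were called by GFP.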

How the data were processed

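Counts per gene and well were deposited by the authors for 8 plates of CEL-seq2 libraries. The submitters' processing notes name a human genome build although all gene identifiers are mouse, and neither aligner, counter, strand setting nor handling of molecular tags is given in the sources used here, so the counts may be reads or molecules. The deposited sort records hold each cell's fluorescence intensity (linear, per the file headers) and its scatter in the sorter's own units. Cells needed 1000 counts, 500 genes and under 20% mitochondrial counts. No doublet caller was run, because wells got sorted single cells. Total counts per plate were 2091816 to 5192543.

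Counts were summed per plate and arm and tested with edgeR 4.0.16 (R 4.3.3) by the quasi-likelihood test with filterByExpr, TMM and plate as block. Benjamini-Hochberg adjustment ran over all tested genes with a threshold of 0.05, and all adjusted p-values are from this test. CPM are not TMM-scaled. DESeq2 1.42.0 was an alternative. Near-identical copies were found with BLAST+ 2.17.0+ over the last 500 transcript bases (95% identity over 100 bases). The fit was tested on simulated data. Arms of a plate are paired by design. Their deviations from the arm means correlated at 0.43 to 0.64 within a plate over 8 plates and at 0.18 to 0.35 over the 4 LCE plates. Between arms of different plates the values were −0.44 to 0.42 over 8 plates and −0.23 to 0.03 over the 4 LCE plates.

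Members and gene lists were chosen with earlier results of these data known. Named were all mitochondrial members, the Sdh genes, nuclear core subunits with Cox4i1, Cox5a and Cox5b, isoform families, and per comparison up to 5 members higher and 5 lower with the largest called change. Other members named with a log2 value were called by the same test and are given to complete the counts. Symbols matched 27249 of 27318 identifiers. Some genes that the symbol rule covers are not reported here. Merging copies and leaving out cells rich in dividing markers were chosen after seeing the data.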

Additional observations from a re-analysis of the deposited data

Results flagged for a closer look

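Within groups of 4 or 8 plates, single plates that stood apart by Dixon's criterion were listed. Chance flags about 1 in 20 groups, and no explanation was tested. Summed counts by complex and genome and the members with the largest called changes were screened in every comparison. With so many groups, flags in the number listed here may arise by chance. By Sca1, the summed complex IV counts differed by −0.11 (log2) in replicate 6, against −0.24 to −0.19 on the other plates. By Dach1-GFP, the summed complex III counts differed by −0.33 between GFP-low and GFP-high cells of replicate 7, against −0.09 to 0.09 elsewhere. By CD48, mt-Co1 differed by −0.14 in replicate 5 and by −0.22 on the other 3 plates. By forward scatter, the mitochondrial genes without copies differed by −0.27 in replicate 7, against −0.17 to −0.16. By side scatter, the summed complex IV counts differed by 0.42 in replicate 6, against 0.11 to 0.16, and mt-Nd3 by 0.17 in replicate 5, against 0.64 to 0.72.

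With all counts used, the CD135 difference of mt-Nd5 was called as differing between the plate sets. It was 0.12 on the LCE plates and −0.09 on the LC plates, a difference of 0.22 ± 0.05 (edgeR interaction test, adjusted p = 0.0314). By CD135, 0.642% of all tested genes differed between the plate sets. mt-Nd5 was the only member called, which cannot be set apart from this share. No member was called after each cell was thinned to equal depth. The plate sets also differ in depth, with median counts per cell of 11586 to 13398 on LC plates and 5627 to 7525 on LCE plates. The part of depth in this difference was not tested.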

How the results depend on the processing

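The number of called members stayed within 1.5 times in every comparison run with a split at the plate median in place of terciles, library sizes over nuclear genes, no cap on mitochondrial counts, no filter on low counts, or without cells of other types. It moved under the following. For most of these settings the share called over all tested genes is not given. A loss of calls particular to the members cannot then be told from a general loss. For Sca1, 34 members were called, against 8 with DESeq2, 0 with no replicate block, 1 after thinning to 3000 counts, 5 on LCE plates alone, 3 there after correction for forward scatter, 0 without cells with at least 2 dividing markers and 11 without the 901 cells richest in them. The 2 dividing marker alternatives were chosen after seeing the data. The first left 629 of 2712 cells, 566 of them on the LCE plates, so it kept few cells of the LC plates and also loses depth. Its counts for Sca1, CD135 and Dach1-GFP therefore cannot tell the part of dividing cells from this loss of cells. For CD135, 21 members were called, against 8 (DESeq2), 1 (no block), 2 (thinned), 5 (LCE), 4 (LCE, corrected), 0 and 12 (dividing), and 13 to 20 with a replicate left out, lowest without replicate 2. For Dach1-GFP, 4 were called, against 0 (DESeq2), 0 (no block), 1 (thinned), 2 (LC plates alone), 1 (LCE, corrected), 0 and 1 (dividing), 7 with merged copies, an alternative added after seeing the data, and 1 to 6 with a replicate left out, lowest without replicate 3 and 2 without replicate 8. For CD48, 20 were called, against 2 (DESeq2), 2 (no block), 7 (corrected for forward scatter), 7 and 13 (dividing), and 9 to 19 with a replicate left out, lowest without replicate 8 and 10 without replicate 6. For forward scatter, 42 were called, against 11 (DESeq2), 16 (no block), 16 (thinned), 1 and 13 (dividing), and 31 to 39 with a replicate left out. For side scatter, 12 were called, against 1 (DESeq2), 1 (no block), 3 (thinned), 0 and 3 (dividing), and 5 to 11 with a replicate left out, lowest without replicate 6. The additive fits called 38 for CD135 and Dach1-GFP (1 with no block, 23 to 39 with a replicate left out, lowest without replicate 1), 34 for CD48 and forward scatter (10, and 16 to 26, lowest without replicate 5) and 39 for Sca1 and forward scatter (17 with no block). The plate sets differed for 1 member, 2 with DESeq2 size factors and 0 after thinning. With cells of at least 2 dividing markers left out, the side scatter differences were −0.06 for Atp5k and for Atp5k-ps2 and 0.00 for mt-Nd4, against 0.51, 0.49 and −0.14 with all cells. The cause was not tested. Leaving out a replicate left 211 values for single genes on their side of the threshold and 37 not. Under the other settings 382 such values stayed, 193 were weaker and 2 were classed as reversed.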

Other observations

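mt-Nd3 and mt-Nd5 also differed in level between the plate sets. In the Sca1 arms mt-Nd5 had 1250 to 2400 CPM on the LCE plates and 783 to 878 CPM on the LC plates, and mt-Nd3 had 49.0 to 156 CPM on the LCE plates and 376 to 583 CPM on the LC plates. All comparisons were made within plates, and what sets the plate sets apart was not tested.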
